A study of Mus musculus with 8 samples.

Results

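This account follows 10 marker genes of dendritic cells in whole mouse spleen: Itgax, Flt3, Zbtb46, Xcr1, Clec9a, Cd209a, Siglech, Batf3, Itgae and Fscn1. Every probe set that the platform annotation pairs with 1 of these symbols was taken, which gave 16 of 45037 probe sets and 9 of the 10 genes. Clec9a had no annotated probe set. Of the 16, 11 probe sets of 8 genes were bright enough to be tested, among 22347 tested probe sets on the array. RNA came from spleens of 8-week-old Nix null mice (Nix-/-, here Nix_KO, 4 arrays numbered 10, 2, 3 and 6 in their titles) and of untreated wild-type controls of that age (WT, 4 arrays numbered 3, 4, 5 and 6). Nix is the mitochondrial protein encoded by Bnip3l. Each array held 1 spleen RNA extract that was not pooled. The strain, the sex and the deleted part of the gene are not given in the sources used here.

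Dendritic cells take up antigen and present it to T cells. Conventional dendritic cells fall into type 1 cells, which depend on Batf3 and Irf8 and carry Xcr1, Clec9a and often Itgae, and type 2 cells, which depend more on Irf4, Relb and Notch signals. Plasmacytoid dendritic cells depend on Tcf4, secrete type I interferon on meeting viral nucleic acid, and carry Siglech in the mouse. Both branches need Flt3 signalling, while Zbtb46 and high Itgax mark the conventional branch and Fscn1 rises as dendritic cells mature.

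Windows around the annotated gene start were taken for 9 of the 10 markers from RefSeq (assembly GRCm38.p6). Each is 300 bases long, from 250 before that start to 50 after it. Windows of Itgax and Zbtb46 are shown because, of the called genes with a window, these held matches. Those of Flt3, Batf3 and Fscn1 held none of the 4 patterns searched. That of Siglech is shown as the plasmacytoid gene against which the conventional markers were compared. Capitals mark matches on either strand to TGANTCA, the letters bound by AP-1 and Batf factors, or to CACCTG, letters bound by E proteins such as Tcf4. The windows lie at chr7:128129300-128129599 on the plus strand (Itgax), chr2:181424339-181424638 on the minus strand (Zbtb46) and chr7:55767934-55768233 on the plus strand (Siglech).
Itgax: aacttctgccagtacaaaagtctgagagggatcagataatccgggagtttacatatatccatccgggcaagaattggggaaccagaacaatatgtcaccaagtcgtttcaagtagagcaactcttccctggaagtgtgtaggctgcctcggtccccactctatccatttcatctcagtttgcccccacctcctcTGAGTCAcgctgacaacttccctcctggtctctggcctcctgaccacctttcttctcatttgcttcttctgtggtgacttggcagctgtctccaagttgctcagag
Zbtb46: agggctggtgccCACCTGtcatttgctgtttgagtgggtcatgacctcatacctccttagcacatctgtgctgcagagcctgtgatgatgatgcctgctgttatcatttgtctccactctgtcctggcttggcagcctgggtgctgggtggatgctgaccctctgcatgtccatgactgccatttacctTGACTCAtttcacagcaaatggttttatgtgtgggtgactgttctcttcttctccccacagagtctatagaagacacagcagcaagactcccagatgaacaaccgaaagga
Siglech: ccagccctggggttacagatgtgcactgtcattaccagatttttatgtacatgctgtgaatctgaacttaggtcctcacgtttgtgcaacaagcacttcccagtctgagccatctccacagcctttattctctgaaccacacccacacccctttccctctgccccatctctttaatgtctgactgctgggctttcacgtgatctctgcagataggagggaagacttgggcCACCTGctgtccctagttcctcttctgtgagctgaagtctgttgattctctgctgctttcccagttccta
TGANTCA was found in 2 of the 9 windows, with its first base at position -56 from the start in Itgax and -61 in Zbtb46, and in 7.81% of all 32851 windows in the table. CACCTG was found in 2 of the 9, at -238 in Zbtb46 and -20 in Siglech, and in 20.2% of all windows. An interferon regulatory factor pattern, GAAANNGAA, was in 1 of the 9 (Clec9a) and in 8.56% of all windows, and a PU.1 pattern, GAGGAAGT, was in 0 of the 9 and in 3.2% of all windows. No matches of different patterns overlapped. A match describes letters only. Whether the annotated starts, that of Zbtb46 included, are those used in spleen was not tested, so a window need not be an active promoter.

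The values are GCRMA intensities, used here as log2. All 8 arrays had nearly the same median intensity, from 28.8 to 30.6. A list of 10 tested pancreatic markers stood apart in 3 arrays, with a mean log2 intensity of 13.05 in Nix_KO 3, 12.12 in WT 3 and 10.07 in WT 5 against 5.30 to 7.55 in the others. Marker results are therefore given also without these 3 arrays, a choice made after seeing the data. Such fits compare Nix_KO 10, 2 and 6 with only WT 4 and 6, so they also have fewer replicates. The 3 probe sets for Bnip3l are annotated jointly with its pseudogene and overlapped between genotypes (12.35 to 13.16 in Nix_KO and 11.95 to 12.57 in WT for the brightest), so they did not check the genotype labels.

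Of the 11 tested marker probe sets, 6 (54.5%) were lower in Nix_KO, 0 were higher and 5 did not pass the threshold of 0.05 on limma's adjusted p. At an unadjusted p under 0.05 there were 8. Among all tested probe sets 30.0% passed in either direction, 17.6% being lower and 12.5% higher in Nix_KO. The 6 belonged to 6 genes: Itgax, Flt3, Zbtb46, Batf3, Itgae and Fscn1. The median log2 difference of the 11 was -0.64, against -0.12 for all tested probe sets. For 5 of the 11 the genotypes did not overlap, all with Nix_KO below WT, which held for 19.5% of all tested probe sets. The filter on weak signal did not depend on 1 genotype here, since 10 of the 11 were at log2 5 or above in all 8 arrays and Cd209a in 7. Without the 3 arrays with pancreatic signal, 1 of the 11 was called lower (Batf3), as were 0.850% of all tested probe sets in the same fit. The differences of the other 5 probe sets called with all arrays then ran from -2.51 to -0.42. In bulk spleen RNA, fewer cells of a type and less RNA per cell cannot be told apart.

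**Figure D1:**
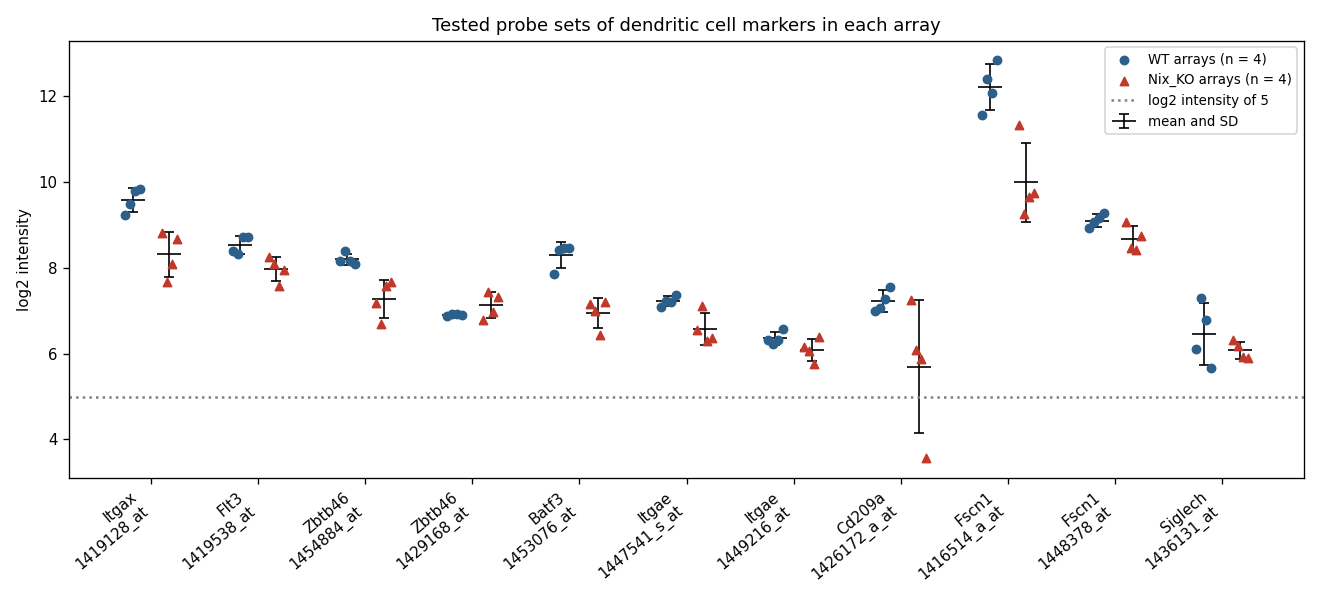
Log2 intensity (vertical axis) of the 11 tested marker probe sets in each of the 4 WT arrays (circles) and 4 Nix_KO arrays (triangles), with the mean and SD as bars and log2 5 as a dotted line. Nix_KO points lie wholly below WT points for Itgax, Flt3, Batf3, 1 probe set of Zbtb46 and 1 of Fscn1, while Siglech points of both genotypes overlap.

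Array values below are log2 intensities in the order Nix_KO 10, 2, 3 and 6, then WT 3, 4, 5 and 6. Differences are Nix_KO minus WT on the log2 scale ± SE with n = 4 per genotype, and adjusted p-values are from limma over all tested probe sets.

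Itgax encodes the integrin CD11c, the usual surface marker of conventional dendritic cells, which some macrophages, natural killer cells and B cells also carry. Its probe set, 1419128_at, measured 8.81, 7.66, 8.09 and 8.67 in Nix_KO and 9.22, 9.47, 9.78 and 9.83 in WT. Every Nix_KO array lay below every WT array, with Nix_KO 2 the lowest. The mean fell from 9.57 ± 0.28 to 8.31 ± 0.53 (SD), a difference of -1.27 ± 0.27 or 2.41-fold lower (adjusted p = 0.00829). Itgax kept this call when any single array was left out. Without the 3 arrays with pancreatic signal the difference was again -1.27, with a larger SE of 0.39 and an adjusted p of 0.101.

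Flt3 encodes the receptor tyrosine kinase through which its ligand drives dendritic cell growth from bone marrow progenitors. Probe set 1419538_at measured 8.25, 8.09, 7.58 and 7.94 in Nix_KO and 8.39, 8.31, 8.72 and 8.71 in WT. The genotypes were separate by a narrow margin, between Nix_KO 10 at 8.25 and WT 4 at 8.31. Flt3 was 1.48-fold lower in Nix_KO (-0.57 ± 0.19, adjusted p = 0.0435). That call was kept without Nix_KO 10 and lost with any other single array left out. It was lost also without the 3 arrays (-0.42, adjusted p = 0.255), with centred (adjusted p = 0.106) or quantile-normalized arrays, without the filter and with array weights. Over all its alternatives the adjusted p ran from 0.0314 to 0.255 and the difference from -0.79 to -0.42. Flt3l, the ligand's gene, had no tested probe set of its own.

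Zbtb46 encodes a zinc finger transcription factor of conventional dendritic cells that endothelial cells express too. Of its 4 probe sets, 1454884_at measured 7.17, 6.69, 7.57 and 7.67 in Nix_KO and 8.16, 8.38, 8.15 and 8.09 in WT. The WT arrays were tightly grouped and all Nix_KO arrays lay below them. Signal was 1.89-fold lower in Nix_KO (-0.92 ± 0.22, adjusted p = 0.0138), and -1.06 with an adjusted p of 0.102 without the 3 arrays. Another probe set of Zbtb46, 1429168_at, measured 6.79, 7.44, 6.97 and 7.31 in Nix_KO and 6.88, 6.91, 6.91 and 6.89 in WT, with Nix_KO arrays on both sides of the WT arrays. Its difference was 0.23 ± 0.17 (adjusted p = 0.333), and 0.28 without the 3 arrays (adjusted p = 0.497). With both probe sets averaged, Zbtb46 differed by -0.35 (adjusted p = 0.0892), so its call rests on 1454884_at. The remaining probe sets, 1440489_at and 1453856_at, were below log2 5 in all arrays, at 3.02 to 4.08 and 2.05 to 2.58, and were not tested.

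Batf3, Itgae, Xcr1 and Clec9a are the type 1 markers. Batf3 encodes an AP-1 family transcription factor that these cells require. Its probe set, 1453076_at, measured 7.15, 6.98, 6.44 and 7.19 in Nix_KO and 7.84, 8.40, 8.46 and 8.46 in WT. All Nix_KO arrays were below WT 3, which itself stood below the other WT arrays. Batf3 was 2.55-fold lower in Nix_KO (-1.35 ± 0.22, adjusted p = 0.00364). The difference without the 3 arrays was -1.32 (adjusted p = 0.0476), and the call was kept with each single array left out.

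Itgae encodes the integrin CD103, found on type 1 dendritic cells and on some T cells. Probe set 1447541_s_at measured 6.55, 7.11, 6.29 and 6.37 in Nix_KO and 7.08, 7.22, 7.21 and 7.37 in WT. Nix_KO 2 lay inside the WT range and the other Nix_KO arrays below it. Signal was 1.56-fold lower in Nix_KO (-0.64 ± 0.19, adjusted p = 0.0343). This call too was lost with each of 7 single arrays left out, kept only without Nix_KO 2, and lost with centred or quantile-normalized arrays, without the filter and without the 3 arrays (-0.62, adjusted p = 0.192). The adjusted p ran from 0.00554 to 0.192 over its alternatives. The other Itgae probe set, 1449216_at, measured 6.15, 6.05, 5.75 and 6.39 in Nix_KO and 6.31, 6.23, 6.31 and 6.58 in WT, which overlap (-0.27 ± 0.17, adjusted p = 0.247). It differed by -0.21 without the 3 arrays (adjusted p = 0.552).

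Xcr1 encodes the chemokine receptor by which type 1 cells sense XCL1. Its 1 probe set, 1422294_at, was between 1.91 and 2.11 in all 8 arrays, far under the filter, and gave no information on the gene. With Clec9a, the receptor for exposed actin of dead cells, not annotated to a probe set, the surface markers most particular to type 1 cells could not be followed.

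Cd209a, the C-type lectin counted among type 2 and monocyte-derived dendritic cell markers, varied most among the Nix_KO arrays. Probe set 1426172_a_at measured 7.25, 6.08, 5.88 and 3.57 in Nix_KO and 6.98, 7.07, 7.28 and 7.55 in WT. Nix_KO 10 sat within the WT range, Nix_KO 2 and 3 lay below it, and Nix_KO 6 was under log2 5. The difference was -1.53 ± 0.63 and did not pass (adjusted p = 0.0935). It was -2.04 without Nix_KO 10, which passed (adjusted p = 0.0207), and -0.82 without Nix_KO 6, which did not (0.0876). With values under log2 5 set to 5, an alternative added after seeing the data, the difference was -1.17 (adjusted p = 0.0489). It was -1.68 without the 3 arrays with pancreatic signal (adjusted p = 0.306).

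Fscn1 encodes fascin, the actin-bundling protein of mature dendritic cells, which neurons also make. Of its 4 probe sets, 1416514_a_at measured 11.32, 9.24, 9.64 and 9.74 in Nix_KO and 11.55, 12.39, 12.07 and 12.82 in WT. Nix_KO 10 came close to WT 3, and the other Nix_KO arrays were far lower. The mean fell from 12.21 ± 0.54 to 9.98 ± 0.92 (SD), which is 4.67-fold lower (-2.22 ± 0.44, adjusted p = 0.00634). No other marker probe set differed by as much. The difference was -2.67 without Nix_KO 10 and -2.51 without the 3 arrays (adjusted p = 0.0693). The second tested probe set, 1448378_at, measured 9.05, 8.46, 8.41 and 8.73 in Nix_KO and 8.91, 9.06, 9.15 and 9.26 in WT. Here Nix_KO 10 exceeded WT 3, and the difference of -0.43 ± 0.18 did not pass (adjusted p = 0.0935), except without Nix_KO 10 (-0.56, adjusted p = 0.035). It was -0.42 without the 3 arrays (adjusted p = 0.294). With both tested probe sets averaged, Fscn1 differed by -1.33 (adjusted p = 0.00503). Probe sets 1416515_at and 1416516_at, at 4.29 to 4.78 and 2.82 to 2.99, were not tested.

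Siglech encodes the sialic acid-binding lectin of mouse plasmacytoid dendritic cells, present also on some macrophages. Its probe set, 1436131_at, measured 6.31, 6.17, 5.92 and 5.89 in Nix_KO and 6.10, 7.30, 6.78 and 5.67 in WT. The Nix_KO arrays lay close together inside a wide WT range, whose lowest array, WT 6, was the lowest of all 8. The difference of -0.39 ± 0.32 did not pass (adjusted p = 0.375), and its 95% confidence interval, from -1.11 to 0.32, covers both a fall of the size seen for several conventional markers and a small rise. It moved to -0.11 without WT 4 and to -0.65 without WT 6, and was -0.36 without the 3 arrays (adjusted p = 0.634).

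**Figure D2:**
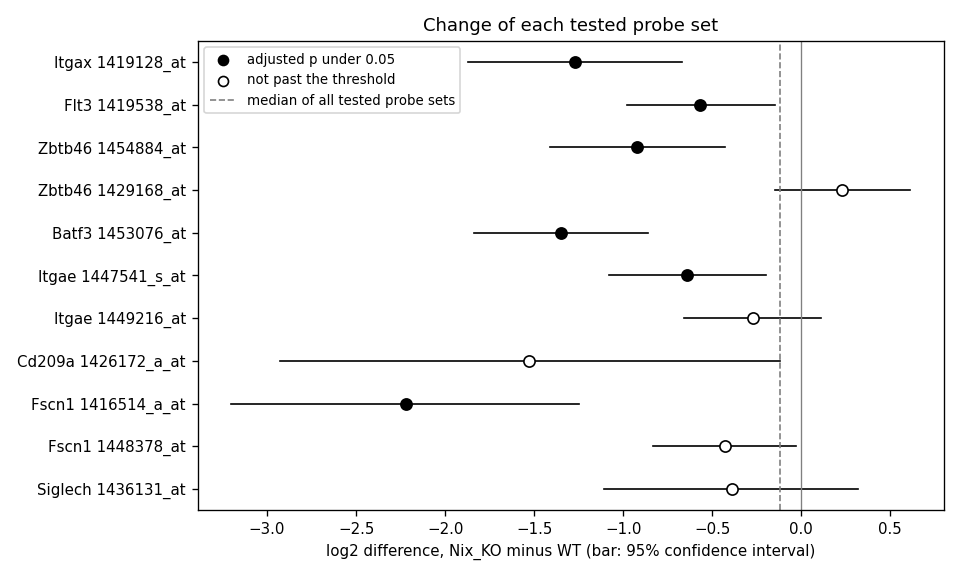
Log2 difference, Nix_KO minus WT (horizontal axis), of the 11 tested marker probe sets with 95% confidence intervals from limma. Filled points passed the threshold on the adjusted p and the dashed line is the median of all tested probe sets. Of the 11 points, 10 lie below 0, from Fscn1 1416514_a_at at -2.22 up to Itgae 1449216_at at -0.27, and Zbtb46 1429168_at lies at 0.23.

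Probe sets of 1 gene were set against each other within arrays in 3 genes, with the exact two-sided permutation test over arrays, whose smallest possible p is 0.0286 for 4 against 4. Zbtb46 1454884_at minus 1429168_at was 0.38, -0.75, 0.60 and 0.37 in Nix_KO and 1.27, 1.46, 1.24 and 1.20 in WT. The probe sets therefore changed unequally, by -1.15 ± 0.31 (exact p = 0.0286, 0.0429 adjusted over the 3 pairs). The pair of Fscn1 probe sets also changed unequally, by -1.79 ± 0.39 (exact permutation p = 0.0286, adjusted 0.0429), with differences of 0.78 to 2.27 in Nix_KO and 2.64 to 3.56 in WT. For the Itgae pair the difference of -0.37 ± 0.23 did not pass (exact permutation p = 0.171, adjusted 0.171). These differences were, without the 3 arrays, -1.33 for Zbtb46, -2.09 for Fscn1 and -0.41 for Itgae, with no test. The probes' positions in the transcripts were not used here.

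**Figure D3:**
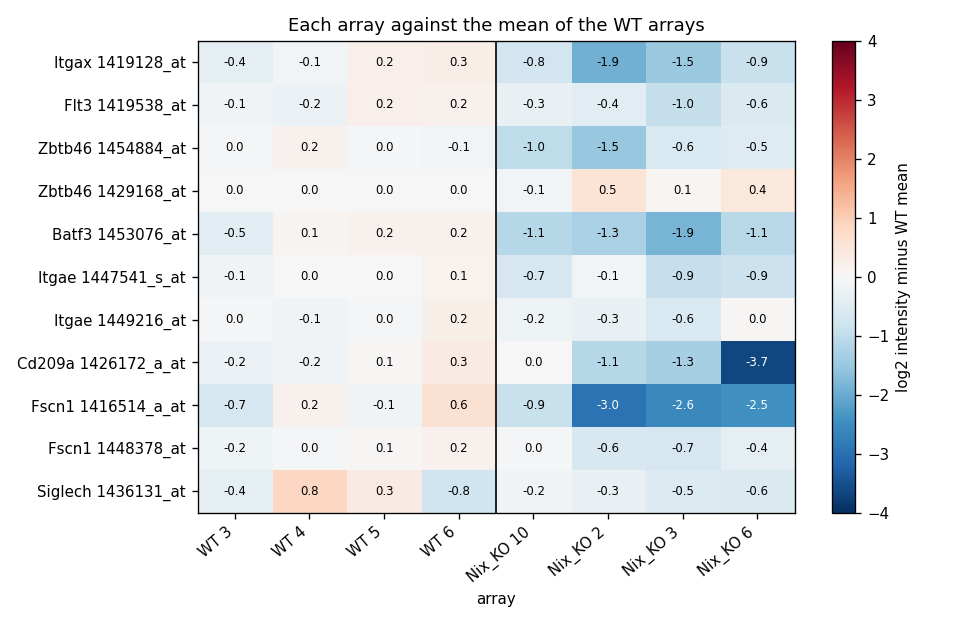
Log2 intensity of each array minus the mean of the 4 WT arrays, for the 11 tested marker probe sets (rows) in WT and Nix_KO arrays (columns), with blue for lower and red for higher. Cd209a is near the WT mean in Nix_KO 10 and lowest in Nix_KO 6, and the bright Fscn1 probe set is lower in all 4 Nix_KO arrays.

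Arrays of a genotype differed across the markers. WT 3 was the lowest WT array for 7 of the 11 probe sets and WT 6 the highest for 6. Nix_KO 10 was the highest Nix_KO array for 6 and Nix_KO 3 the lowest for 5. In Itgax, Cd209a and both tested Fscn1 probe sets, Nix_KO 10 was the highest Nix_KO array and WT 3 the lowest WT array.

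Conventional markers were then compared with the plasmacytoid marker by subtracting Siglech within each array from the brightest tested probe set of the other 7 genes. These include Flt3, although plasmacytoid cells also need it, and Fscn1, although it marks maturation. Fscn1 minus Siglech was 5.01, 3.07, 3.71 and 3.86 in Nix_KO and 5.45, 5.10, 5.29 and 7.15 in WT, without overlap. That was a difference of -1.83 ± 0.62 (exact two-sided permutation p = 0.0286, 0.2 adjusted over the 7 pairs). Batf3 minus Siglech differed by -0.96 ± 0.39 (exact p = 0.0571, adjusted 0.2) and Itgax minus Siglech by -0.88 ± 0.49 (exact p = 0.114, adjusted 0.267). In both the genotypes overlapped. The other pairs differed by -1.13 ± 0.82 for Cd209a and -0.53 ± 0.43 for Zbtb46 (exact p = 0.286, adjusted 0.4 for each). Itgae and Flt3 gave -0.25 ± 0.41 (exact p = 0.571, adjusted 0.657) and -0.18 ± 0.43 (exact p = 0.657, adjusted 0.657). All 7 differences were negative, but all subtract the same Siglech values, so their signs are not separate observations. Fscn1 reached the smallest p possible for 4 against 4 arrays, yet 1 pair at that p cannot pass after adjustment over 7 pairs. These tests therefore could hardly pass, and 0 of 7 did. A larger fall of conventional than of plasmacytoid marker signal was not shown, and these arrays are too few to exclude it. The sign for Zbtb46 turned to 0.05 when its probe sets were averaged.

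Single arrays moved these differences. Without WT 6, where Siglech was lowest, they were -1.37 for Fscn1, -0.64 for Batf3, -0.53 for Itgax, -0.76 for Cd209a and -0.30 for Zbtb46, and turned to 0.06 for Itgae and 0.14 for Flt3. Without WT 4, where Siglech was highest, they ran from -2.05 for Fscn1 to -0.53 for Flt3 and Itgae. Cd209a minus Siglech was -0.49 without Nix_KO 6, and Zbtb46 minus Siglech was -0.30 also without Nix_KO 2. Leaving out the 3 arrays with pancreatic signal gave -2.14 for Fscn1, -0.96 for Batf3, -0.90 for Itgax, -1.31 for Cd209a, -0.69 for Zbtb46, -0.25 for Itgae and -0.06 for Flt3, with no test.

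The mean of the 7 conventional genes was 8.07, 7.41, 7.36 and 7.31 in Nix_KO and 8.46, 8.75, 8.81 and 8.98 in WT, a difference of -1.21, with no overlap. Among the 7, the maturation gene Fscn1 had the largest difference (-2.22). The distance of the mean to Siglech was 1.76, 1.24, 1.43 and 1.42 in Nix_KO and 2.36, 1.45, 2.03 and 3.30 in WT. WT 4, where Siglech was highest, falls inside the Nix_KO range, so the 2 genotypes overlap in this distance.

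Further dendritic cell genes were taken from 6 lists and described at the gene level, where a gene is its brightest single-gene probe set. There 24.1% of 11027 tested genes were lower and 14.2% higher in Nix_KO, with a median difference of -0.15. Outside the 10 markers the lists held 76 tested genes, of which 50 were lower and 3 higher. Without the 3 arrays with pancreatic signal 23 of these were lower, where 7.60% of all genes were lower and 7.67% higher. At this level the markers counted 6 lower and 0 higher of 8, with a median of -1.09.

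Among type 1 genes 8 of 13 were lower and 2 higher (median -0.64). Wdfy4, needed for cross-presentation, measured 10.65, 9.69, 10.07 and 10.25 in Nix_KO and 11.63, 11.87, 11.96 and 11.83 in WT (-1.66 ± 0.20, adjusted p = 0.00116). Irf8, the lineage factor of type 1 cells that B cells also express, differed by -1.12 ± 0.22 (adjusted p = 0.00352). Naaa, a lipid amidase, was lower by this probe set (-0.97 ± 0.15, adjusted p = 0.00162) but its other tested probe set did not pass. Id2, which restrains E proteins, fell less (-0.64 ± 0.15, adjusted p = 0.00811). The higher genes were Cd24a and Snx22, the latter named after its value was seen (1.37, adjusted p = 0.00389). Cd24a, which red cell precursors also carry in quantity, measured 15.01, 15.05, 15.33 and 15.20 in Nix_KO and 14.56, 14.23, 14.12 and 13.91 in WT (0.94 ± 0.17, adjusted p = 0.00271).

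Among type 2 genes 7 of 11 were lower and 0 higher (median -0.78). Relb, the NF-kappaB subunit required by type 2 cells and listed also among maturation genes, measured 8.51, 7.45, 7.35 and 7.85 in Nix_KO and 9.16, 9.48, 9.67 and 9.48 in WT. It differed by -1.66 ± 0.25 (adjusted p = 0.00159). Irf4, a lineage factor shared with B cells, differed by -1.55 ± 0.30 (adjusted p = 0.00341), and Ltb, a lymphotoxin subunit made mostly by lymphocytes, by -1.50 ± 0.23 (adjusted p = 0.00161). Tbx21 was lower as well (-1.04 ± 0.22, adjusted p = 0.00527), a factor better known from T and natural killer cells. The lectin genes Clec10a (-0.17, adjusted p = 0.592) and Clec4a2 (0.11, adjusted p = 0.605), named after their values were seen, did not pass.

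Among plasmacytoid genes 6 of 15 were lower and 1 higher (median -0.54). The lower ones included Ly6d at -1.97 ± 0.24 (adjusted p = 0.00118) and Spib at -1.45 ± 0.24 (adjusted p = 0.00201), both also expressed by B cells, and Bst2 at -0.97 ± 0.21 (adjusted p = 0.0058), a surface protein induced by interferon. Tcf4, the factor that sets plasmacytoid identity, measured 10.73, 9.85, 10.67 and 9.45 in Nix_KO and 10.27, 10.90, 10.97 and 10.70 in WT, which overlap. Its difference of -0.54 ± 0.29 did not pass (adjusted p = 0.17), while 2 of its 4 other tested probe sets were lower. Irf7, which drives type I interferon genes, was at 0.63 ± 0.23 and did not pass (adjusted p = 0.0533). Irf7 did pass as higher with centred arrays (0.75, adjusted p = 0.0338), with quantile-normalized arrays (0.69, adjusted p = 0.0345) and without Nix_KO 10 (0.81, adjusted p = 0.0148), and both scalings gave 2 higher genes in this list. Smim5 was the higher gene (2.02 ± 0.38, adjusted p = 0.00329).

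Among mature and migratory genes 11 of 15 were lower and 0 higher (median -0.97). Cd40, the receptor for T cell help on dendritic and B cells, measured 8.07, 7.98, 7.87 and 7.85 in Nix_KO and 9.05, 9.48, 9.40 and 9.46 in WT (-1.40 ± 0.15, adjusted p = 0.000976). Ccr7, the receptor that guides migration into T cell zones and is shared with T and B cells, differed by -0.99 ± 0.22 (adjusted p = 0.0064). Cd274, the PD-1 ligand PD-L1, differed by -0.97 ± 0.18 (adjusted p = 0.00316). The costimulatory genes Cd80 (-0.03, adjusted p = 0.887) and Cd86 (-0.26, adjusted p = 0.392), also named after their values were seen, did not pass.

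Among growth and lineage control genes 13 of 18 were lower and 0 higher (median -0.65). Spi1, encoding PU.1, differed by -1.40 ± 0.21 (adjusted p = 0.00162). Bcl6, a transcriptional repressor present in conventional dendritic cells and germinal centre B cells, differed by -1.37 ± 0.29 (adjusted p = 0.00503). Stat3, which signals downstream of Flt3, differed by -1.18 ± 0.21 (adjusted p = 0.00263), although 1 of its 2 other tested probe sets did not pass. Csf1r, the M-CSF receptor shared with macrophages, differed by -0.87 ± 0.18 (adjusted p = 0.00484).

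Pan-dendritic and antigen presentation genes were lower in 15 of 16 cases, with 0 higher (median -0.91). The class II regulator Ciita measured 6.98, 5.75, 6.22 and 6.78 in Nix_KO and 7.68, 8.05, 8.30 and 8.30 in WT (-1.65 ± 0.27, adjusted p = 0.00196). The class II loading genes H2-DMa (-1.63 ± 0.23, adjusted p = 0.00136), H2-Oa (-1.55 ± 0.22, adjusted p = 0.00143) and H2-DMb2 (-1.36 ± 0.17, adjusted p = 0.00118) fell with it. B cells carry all of these. Ly75, the endocytic receptor DEC-205, was the 1 gene that did not pass (-0.18, adjusted p = 0.585).

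**Figure D4:**
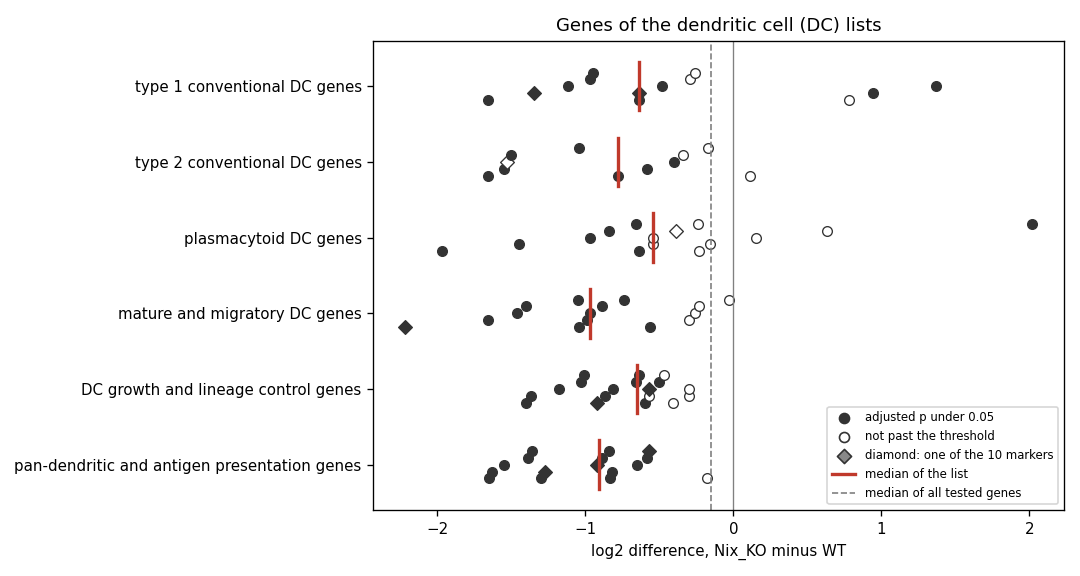
Log2 difference, Nix_KO minus WT (horizontal axis), of every tested gene in the 6 dendritic cell lists (rows), with filled symbols for an adjusted p under 0.05, diamonds for the 10 markers, red bars for list medians and the dashed line for the median of all genes. List medians lie between -0.97 and -0.54, and the 3 filled symbols above 0 are Cd24a, Snx22 and Smim5.

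Without the 3 arrays with pancreatic signal, fewer genes were called overall (7.60% of all genes lower against 24.1% with all arrays) and in each list. Those lower were 5 type 1, 3 type 2, 2 plasmacytoid, 5 mature, 5 growth and 7 antigen presentation genes. The medians were then -0.62, -0.89, -0.53, -0.91, -0.66 and -1.05. Of the 24 called genes named here outside the 10 markers by rule, 19 kept their call, and Irf4, Irf8, Bst2, Csf1r and Ccr7 lost it.

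Markers of other spleen cells changed too, in some types downward like these genes and in others upward. B cell markers were lower in 10 of 10 genes, with a list mean per array of 9.67 to 10.56 in Nix_KO and 11.32 to 11.64 in WT. T cell markers were lower in 9 of 10 (8.20 to 9.30 against 9.25 to 9.95), natural killer markers in 8 of 9 (6.88 to 7.39 against 7.90 to 8.42) and endothelial and stromal markers in 9 of 10 (7.14 to 7.85 against 8.53 to 8.78). Macrophage and monocyte markers were lower in 3 of 10, and their list means overlapped (10.19 to 11.10 against 10.88 to 11.19). Neutrophil markers were higher in 10 of 10 (10.72 to 11.54 against 7.81 to 10.45) and erythroid markers in 9 of 9 (12.51 to 12.95 against 9.71 to 11.69). Pancreatic markers were called in 0 of 10 by limma. The part of these cell types in the dendritic cell results was not tested. These lists and the dendritic lists share 1 gene, Csf1r.

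**Figure D5:**
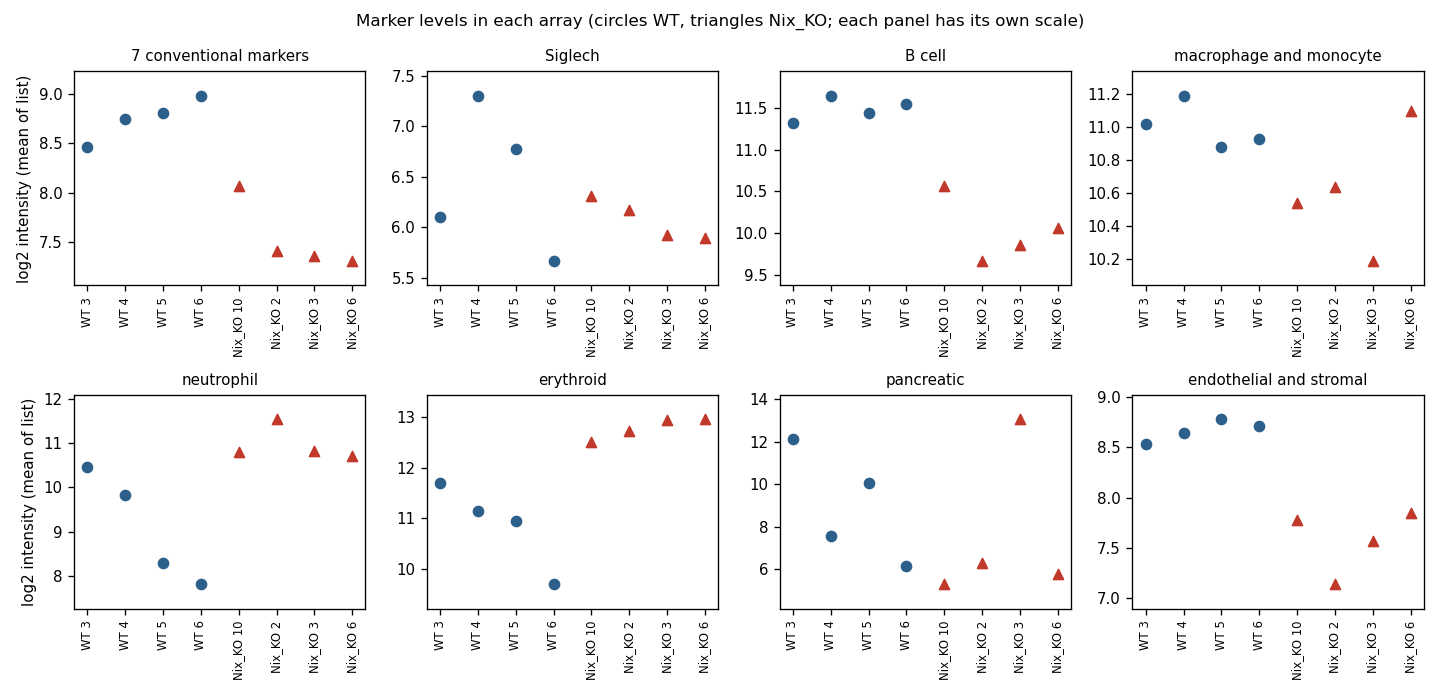
Log2 intensity in each array (WT circles, Nix_KO triangles), as the mean of the 7 conventional markers, as Siglech alone and as the mean of 6 lists of other cell types, each panel on its own scale. The conventional, B cell and endothelial panels show all Nix_KO arrays below all WT arrays, the erythroid and neutrophil panels the reverse, and the pancreatic panel 3 high arrays from both genotypes.

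Nix_KO 10 at 8.07 and WT 3 at 8.46 came closest across genotypes in the conventional mean. They were also the closest pair in B cell (10.56 and 11.32), T cell (9.30 and 9.25) and erythroid markers (12.51 and 11.69). Nix_KO 6 and WT 3 were instead closest in natural killer (7.39 and 7.90) and in endothelial and stromal markers (7.85 and 8.53). The same pair was closest in neutrophil (10.72 and 10.45) and in macrophage and monocyte markers (11.10 and 11.02). Centring each array on its median raised the median of all tested probe sets from -0.122 to 0.000 and moved the called probe sets from 41.6% to 52.4% higher. The median of the 11 marker probe sets was -0.52 after centring and -0.51 after quantile normalization, below that of all tested probe sets under both scalings (0.000 and -0.047).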

How the data were processed

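RNA of 8 mouse spleens, 4 Nix_KO and 4 WT, was hybridised 1 per Affymetrix mouse array, and each is taken as a separate animal. The authors deposited 1 linear intensity per probe set and array, made with GCRMA per the submitters' processing notes. GCRMA corrects background, normalizes between arrays and pulls weak probe sets to a common low level. Its version and genome build are not given in the sources used here.

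Intensities were log2-transformed with no offset. Leaving aside 64 controls, probe sets at log2 5 or above in at least 4 of 8 arrays were tested. Names came from the platform annotation: 34945 probe sets had 1 gene, 932 several and 9160 none. A gene was its brightest tested single-gene probe set. Genotypes were compared with limma 3.58.1 in R 4.3.3, two-sided, adjusted by Benjamini-Hochberg over all probe sets or genes tested at a threshold of 0.05. Differences within arrays used exact permutation (scipy 1.17.1). The script was tested on simulated data. The number of arrays limits the precision.

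The markers and gene lists were chosen with earlier results of these data known. Beside the markers, up to 4 called genes per dendritic list with the smallest adjusted p were named, and Irf8, Irf4, Tcf4, Spib, Id2, Flt3l, Bst2, Irf7, Ccr7 and Relb whether or not they passed. Alternatives changed the filter, scaling, offset, array weights, probe set rule and arrays used.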

Additional observations from a re-analysis of the deposited data

Results flagged for a closer look

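In 3 of 76 groups of 4 arrays examined, 1 array stood apart from the rest by Dixon's criterion, which chance meets in about 1 of 20 groups. Batf3 in WT 3 was 7.84 against 8.40 to 8.46 in the other WT arrays. The mean of the 7 conventional markers in Nix_KO 10 was 8.07 against 7.31 to 7.41 in the other Nix_KO arrays. Tbx21 in Nix_KO 3 was 6.74 against 7.29 to 7.33 in the other Nix_KO arrays.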

How the results depend on the processing

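The number of called probe sets depended on the arrays used. Leaving out single arrays gave 3996 to 6993 called probe sets, with 2096 to 4221 lower in Nix_KO and the lowest counts without WT 4 or WT 6, against 6711 and 3922 with all arrays. Without WT 5 there were 2529 lower. Marker probe sets counted 4 to 7 lower in those fits. At the gene level, 38 to 50 dendritic list genes other than the markers were lower, beside 1780 to 2743 of all 11027 genes. Without the 3 arrays with pancreatic signal, chosen after seeing the data, 690 probe sets were called and 190 were lower, 1 of them a marker. At the gene level 1684 genes were then called, 838 lower and 846 higher, with 23 dendritic list genes lower.

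Both genotypes have arrays titled 3 and 6. Deviations from the genotype means correlated at 0.252 for the arrays numbered 3 and at 0.147 for those numbered 6. Pairs with unlike numbers ran from -0.493 to 0.384, and the numbers are not taken to pair the arrays. With the number as a replicate block, genotypes are compared within the arrays numbered 3 and 6 alone, which leaves few degrees of freedom. In that fit 1 probe set was called and it was lower, with 0 marker probe sets. The blocked gene-level fit called 1441 genes, 669 lower and 772 higher, and 26 dendritic list genes were lower. Siglech turned to 0.02 with the block (adjusted p = 0.98). In the arrays numbered 3 and 6 it measured 5.92 and 5.89 in Nix_KO and 6.10 and 5.67 in WT. Zbtb46 minus Siglech turned to 0.05 with the probe sets averaged (exact permutation p adjusted over the pairs = 0.914). That turn follows from the averaged Zbtb46 difference of -0.35 against -0.39 for Siglech. Why the Zbtb46 probe sets differ was not tested.

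The calls of Itgax, Batf3, Zbtb46 1454884_at and Fscn1 1416514_a_at were kept under every filter, scaling, offset and single array left out. Without the 3 arrays with pancreatic signal only Batf3 kept its call, and with the replicate block none of them did. Averaging its probe sets lost the call of Zbtb46. Weak signal limits Xcr1 and 4 further marker probe sets, which were under log2 5 in all 8 arrays.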
